A study of Mus musculus with 9 samples.

Results

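The genes described here are Pmaip1, Bbc3, Bax, Cdkn1a, Ccng1, Mdm2, Phlda3, Sesn2, Trp53inp1 and Zmat3, a set of transcriptional targets of p53 chosen by symbol. They were proposed with earlier results of these data known, and Pmaip1 was among them for its value in T/BraKO, a mutant described below. All 10 were found among the 24736 genes of the expression table, and all 10 were measured in every library. Poly(A) RNA had been sequenced from 9 cultures of mouse embryonic stem cells (ESCs) driven in culture towards caudal epiblast-like cells (CEpiLCs), which model the progenitors at the posterior end of the embryo that build its trunk. There were 3 biological replicates each of wild type (WT), of cells lacking Cdx1, Cdx2 and Cdx4 together (CdxKO, genotype Cdx1/2/4-/-) and of a mutant of T, also called Brachyury (T/BraKO, genotype T/Bra-/-). All cultures received the growth factor bFGF (basic FGF) at 10 ng per ml and the WNT secretion inhibitor LGK974 at 5 uM, with the WNT pathway activator CHIR99021 added after 2 days, and were collected at 72 h. The methods of the study state that its ESC lines came from the male line HM1 TetON, which served as WT, and that ESCs were grown on mouse embryonic fibroblast feeders removed before differentiation. The labels name no second line of either mutant genotype, so the mutation and other properties of a line cannot be told apart.

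p53, encoded by Trp53 in the mouse, is a transcription factor that is kept at a low level by MDM2, a ubiquitin ligase whose own gene is a p53 target. On DNA damage and other stresses p53 accumulates and activates genes that stop the cell cycle, promote apoptosis, repair DNA and adjust metabolism. Pluripotent and early epiblast cells are known for undergoing apoptosis readily, and Pmaip1 encodes NOXA, a BH3-only protein that binds and neutralises the survival protein MCL1.

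Total expected counts (read numbers as estimated by RSEM) ranged from 25124344 to 34705361 per library, and size factors from 0.797 to 1.12. The mutated genes were compared first. T had 12243 ± 2181 normalised counts in WT (counts divided by the size factor of the library, mean ± SD, n = 3), 2295 ± 563 in T/BraKO and 13340 ± 6780 in CdxKO, so T transcript remained in the T/BraKO libraries. Of the genes mutated in CdxKO, Cdx1 went from 536 ± 90.7 normalised counts (WT) to 272 ± 68.7 (CdxKO), Cdx2 from 4199 ± 1740 to 1031 ± 515 and Cdx4 from 118 ± 52.2 to 1.64 ± 0.338. Transcript of Cdx1 and Cdx2 therefore also remained, and a gene-level count does not show whether it encodes protein. Other genes also set the lines apart. Hprt, a purine salvage enzyme, stood at 3938 ± 303 normalised counts in T/BraKO, against 21.7 ± 5.81 in WT and 22.4 ± 2.37 in CdxKO. The Y-linked gene Ddx3y had 1727 ± 55.7 in WT and 0 in the 3 CdxKO libraries. The part of these line differences in the results was not tested.

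In WT CEpiLCs the targets spanned a wide range of levels. On the TPM scale, which accounts for transcript length, Ccng1, encoding cyclin G1, was the most abundant member with 694 ± 89.3 TPM (mean ± SD, n = 3). It was followed by Cdkn1a, encoding the cyclin-dependent kinase inhibitor p21, with 315 ± 37.8 TPM. The next levels were Bax, a pore-forming effector of apoptosis, with 220 ± 10.7 TPM, and Trp53inp1, a nuclear and autophagy-linked stress protein, with 212 ± 47.0 TPM. The ranges of these 2 genes over the WT libraries overlapped. Mdm2 had 129 ± 4.39 TPM. Phlda3, an inhibitor of AKT, Sesn2, an inhibitor of mTORC1, and Zmat3, an RNA-binding protein, had 93.1 ± 5.26, 81.8 ± 17.2 and 80.9 ± 8.36 TPM, and neighbours in this order overlapped. The BH3-only genes Bbc3, encoding PUMA, and Pmaip1 were the lowest with 22.9 ± 3.48 and 18.3 ± 3.06 TPM, and they also overlapped. Trp53 itself had 417 ± 74.5 TPM.

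**Figure D1:**
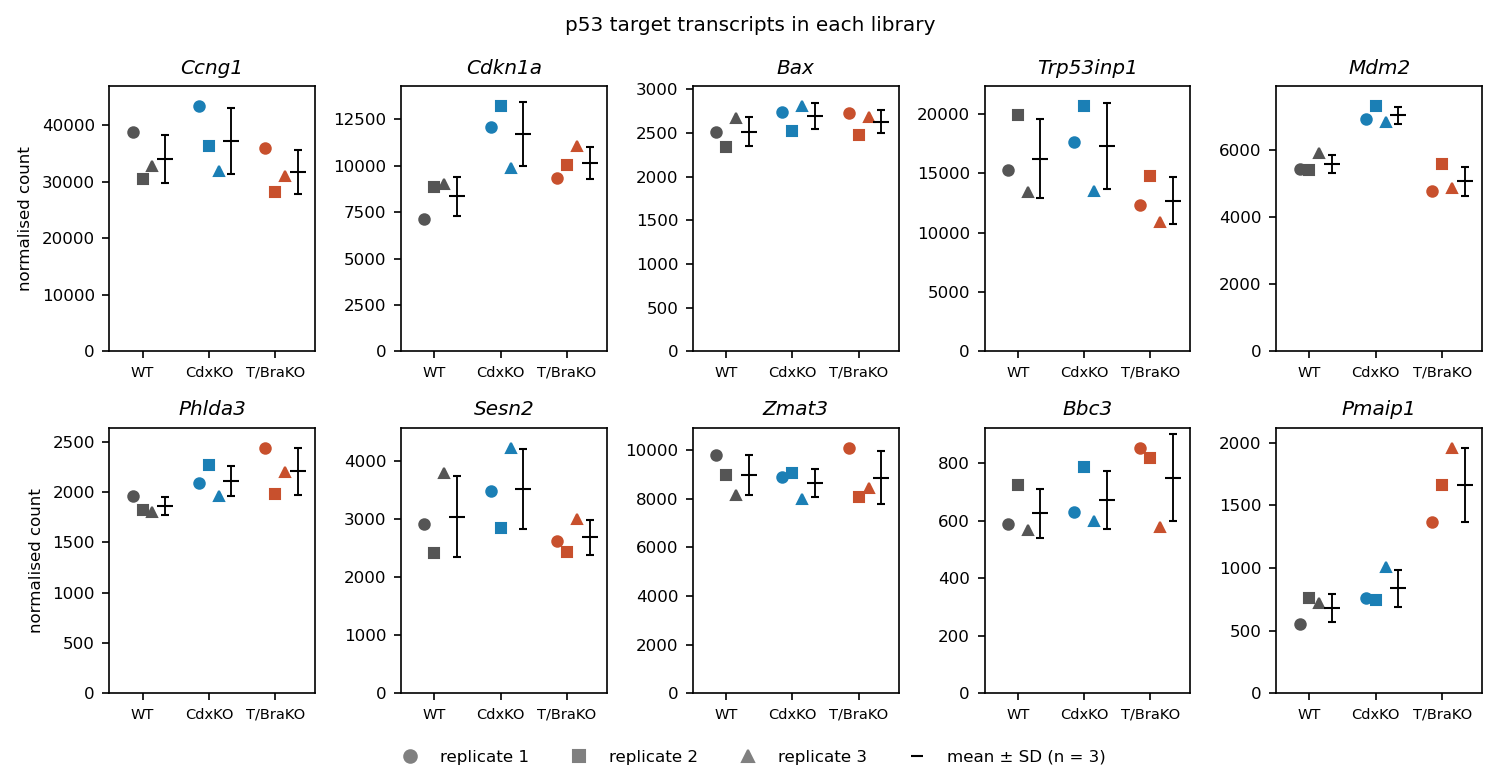
Normalised counts of the 10 p53 target genes in each library, 1 panel per gene, ordered by their TPM in WT, with genotype on the x axis and linear y axes from 0. Point shapes give the replicate number and bars the mean ± SD of 3 replicates. The 3 T/BraKO libraries of Pmaip1 lie between 1365 and 1961, above all WT and CdxKO libraries, and the 3 CdxKO libraries of Mdm2 lie between 6828 and 7305, above all others.

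Few of the 10 targets were called between genotypes when replicate number was left out of the model. At an adjusted p of at most 0.05 in DESeq2 with genotype as the only term, 1 member was called between CdxKO and WT (Mdm2, higher), where 0.693% of all genes tested were called (0.335% higher and 0.358% lower). Between T/BraKO and WT 1 member was called (Pmaip1, higher), against 1.08% of all genes (0.148% higher and 0.937% lower). Directly between CdxKO and T/BraKO 2 members were called, Mdm2 as higher and Pmaip1 as lower in CdxKO, against 3.48% of all genes (2.52% higher and 0.962% lower). In edgeR's quasi-likelihood test 0, 1 and 2 members were called in these comparisons, against 0.11%, 0.385% and 1.63% of all genes. The median log2 fold changes of the 10 members were 0.15 for CdxKO against WT, 0.02 for T/BraKO against WT and 0.12 for CdxKO against T/BraKO, and those of all genes tested were -0.00, 0 and -0.01. These 3 comparisons share libraries and are not independent of each other. Pmaip1 was chosen for its T/BraKO value, so its calls are no independent result beside these shares.

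Libraries carrying the same replicate number deviated together, so each test was also run with replicate number entered as a blocking term. This block raised the members called to 3 between CdxKO and WT (Cdkn1a, Mdm2 and Sesn2, all higher), where it called 5.31% of all genes (3.4% higher and 1.91% lower). It raised them to 3 between T/BraKO and WT (Pmaip1 and Phlda3 higher, Trp53inp1 lower), against 9.68% of all genes (4.83% higher and 4.85% lower). It raised them to 5 between CdxKO and T/BraKO (Mdm2, Ccng1, Sesn2 and Trp53inp1 higher, Pmaip1 lower), against 14.6% of all genes (7.75% higher and 6.9% lower). With the block edgeR called 2 members between CdxKO and WT (Cdkn1a and Mdm2), 2 between T/BraKO and WT (Pmaip1 and Trp53inp1) and the same 5 between the mutants, against 4.56%, 9.5% and 18.7% of all genes.

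**Figure D2:**
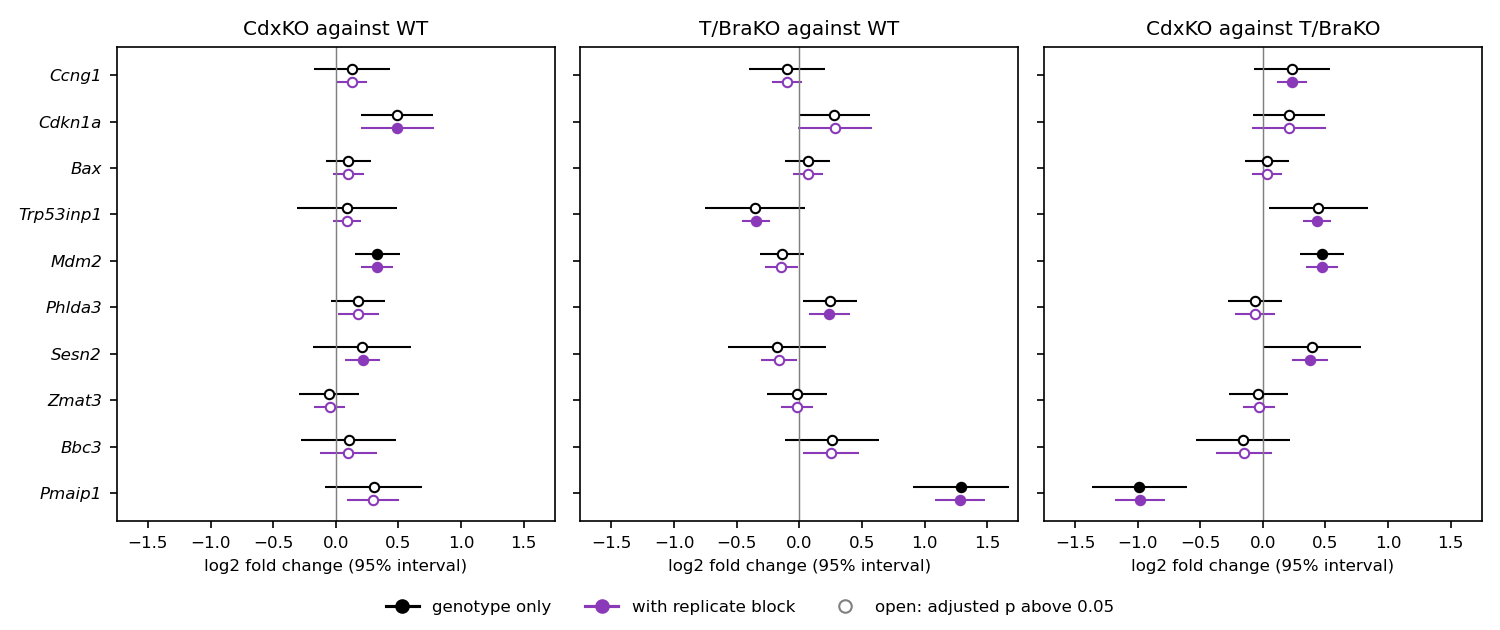
Log2 fold changes (x axis) of the 10 members (y axis) in the 3 comparisons, as points with 95% intervals, from DESeq2 with genotype only (black) and with the replicate block (purple). Filled points have an adjusted p of at most 0.05. Pmaip1 stands at 1.29 in T/BraKO against WT, and no other member passes 0.5 in size in any panel except Pmaip1 again at -0.99 in CdxKO against T/BraKO.

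Among the apoptosis genes, Pmaip1 rose in T/BraKO while Bbc3 and Bax did not pass the test in any comparison. Pmaip1 (GRCm38 chromosome 18, 66458533 to 66465565, plus strand) had 551, 764 and 725 normalised counts in WT replicates 1, 2 and 3, 765, 744 and 1007 in CdxKO, and 1365, 1665 and 1961 in T/BraKO. The T/BraKO libraries lay above all others, and the WT and CdxKO libraries overlapped. DESeq2 gave a log2 fold change of 1.29 for T/BraKO against WT (SE 0.19, adjusted p = 1.84e-08), a 2.44-fold higher level, and it was higher in 3 of 3 same-numbered pairs. The deposited TPM rose with it, from 18.3 ± 3.06 in WT to 43.7 ± 7.60 in T/BraKO (n = 3), with 22.5 ± 3.63 in CdxKO. Between CdxKO and WT the log2 fold change of Pmaip1 was 0.30 (95% interval -0.08 to 0.69, DESeq2 adjusted p = 1.00). The increase in T/BraKO passed the threshold under all 15 alternative fits, with log2 fold changes between 1.15 and 1.41 and adjusted p up to 0.0212, the latter from edgeR's quasi-likelihood test. As Pmaip1 had been chosen for this value, these fits and pairs are no independent test of the increase.

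Bbc3 (chromosome 7, 16308393 to 16318205, plus strand), whose product PUMA is like NOXA a BH3-only activator of apoptosis, had 588, 724 and 567 normalised counts in WT replicates 1, 2 and 3, 630, 789 and 599 in CdxKO, and 855, 821 and 578 in T/BraKO. All 3 groups overlapped, and the log2 fold change for T/BraKO against WT was 0.26 (95% interval -0.12 to 0.64, DESeq2 adjusted p = 1). Bax (chromosome 7, 45461697 to 45466898, minus strand) was among the steadiest members, at 2510 ± 166 normalised counts in the WT libraries, 2691 ± 148 in the CdxKO and 2629 ± 131 in the T/BraKO libraries (n = 3 each). Its 95% intervals reached from -0.08 to 0.28 for CdxKO against WT and from -0.11 to 0.24 for T/BraKO against WT. Bax shares 915 bases with Gm45808 on the same strand, so counts of the shared stretch could belong to either gene.

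The partners of these proteins in the BCL-2 family were read from a list of 13 genes, of which 12 could be tested. By DESeq2 none passed the threshold in any of the 3 comparisons, and edgeR also called none. At an unadjusted p under 0.05, DESeq2 had 2 of them for CdxKO against WT, 1 for T/BraKO against WT and 2 for CdxKO against T/BraKO. The share of all genes at that unadjusted p was not counted, here or for the lists below. Such counts therefore have no reference and are not read as a result. Mcl1, the main binding partner of NOXA, had 6309 ± 154 normalised counts in CdxKO, against 5542 ± 288 in WT (log2 fold change 0.19, DESeq2 adjusted p = 0.799, and 0.0660 with the block). With the block DESeq2 called Bcl2l1, encoding the survival protein BCL-XL, higher in CdxKO than in WT (log2 fold change 0.44, adjusted p = 1.77e-05) and than in T/BraKO (0.30, 0.00521). Also with the block, Bcl2l2, encoding the survival protein BCL-W, was below WT in T/BraKO (-0.31, 0.0140) and higher in CdxKO than in T/BraKO (0.39, 4.38e-04). The same genes did not pass without the block (adjusted p between 0.0905 and 1). Of all genes the block called 3.4% higher for CdxKO against WT and 4.85% lower for T/BraKO against WT. For CdxKO against T/BraKO it called 7.75% higher. Bok, an effector of the family, had a log2 fold change of 0.30 in T/BraKO (DESeq2 adjusted p = 0.918).

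The cell-cycle members behaved differently from each other. Cdkn1a (chromosome 17, 29090976 to 29100727, plus strand) had 7153, 8859 and 9029 normalised counts in WT replicates 1, 2 and 3, 12060, 13229 and 9856 in CdxKO, and 9333, 10047 and 11038 in T/BraKO. Every library of either mutant was above every WT library, and the mutants overlapped. The log2 fold change for CdxKO against WT was 0.49 (SE 0.15) with a DESeq2 adjusted p of 0.0985, and 0.0246 with the replicate block. CdxKO replicate 3 was the lowest of its group, and without it the log2 fold change was 0.60 (adjusted p = 0.00943). For T/BraKO against WT the log2 fold change was 0.28, with an adjusted p of 1 and, with the block, 0.256.

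Ccng1 (chromosome 11, 40748552 to 40755311, minus strand) averaged 34059 ± 4326 normalised counts over the WT libraries, 37290 ± 5821 over CdxKO and 31753 ± 3927 over T/BraKO (n = 3 each), with all groups overlapping. It was higher in CdxKO than in T/BraKO only in the fits with the replicate block (log2 fold change 0.23, DESeq2 adjusted p = 0.00263, against 0.691 without the block). In a list of 14 cell-cycle genes that p53 represses through p21, among them Cdk1, Plk1 and Foxm1, neither DESeq2 nor edgeR called any gene in any comparison, with or without the block in DESeq2. At an unadjusted p under 0.05 DESeq2 had 1 of them for CdxKO against WT and 0 in the other comparisons. This was Cenpf, a kinetochore protein, at 5051 ± 707 normalised counts in CdxKO, against 6519 ± 887 in WT (log2 fold change -0.37, adjusted p = 0.570). Cdc25c, a phosphatase that drives entry into mitosis, had a log2 fold change of -0.16 in T/BraKO (adjusted p = 1).

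The sequences upstream of Cdkn1a, Ccng1 and Bbc3 are shown because they hold the best matches to the p53 response element among the member promoters kept. Pmaip1, Trp53inp1 and Zmat3 were left out of the member results. The values of Cdkn1a, Ccng1 and Bbc3 are given above. RefSeq promoters of GRCm38.p6, from 250 bases before to 50 after each start, were searched for the 20 letters of the canonical p53 response element, a pair of half-sites each with the core CNNG, allowing at least 17 matching letters with the C and G of both cores kept. The element reads the same on both strands, so both were covered. The threshold of 17 was chosen after matches had been seen. Among the members, 10 promoters of 7 genes were kept, and 3 of these promoters, each of another gene, held a match (30.0%). Of the promoters of all genes, 453 of 32851 held a match (1.38%). Counted by gene, the matches fell in 3 of 7 members and 441 of 27025 genes. The share of the members leaves out Pmaip1, Trp53inp1 and Zmat3, so it describes only the members searched. It may not rest on a set like that of all genes. The matched letters are in capitals, with 20 bases on either side.
Cdkn1a, chr17:29090908-29090967, plus strand: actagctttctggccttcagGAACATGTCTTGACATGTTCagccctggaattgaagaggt
Ccng1, chr11:40755442-40755501, minus strand: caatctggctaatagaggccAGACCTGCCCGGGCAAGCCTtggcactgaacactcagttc
Bbc3, chr7:16309466-16309525, plus strand: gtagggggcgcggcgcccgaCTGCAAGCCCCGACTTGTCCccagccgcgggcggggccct
The matches held 19, 19 and 17 of the 20 letters and began at positions -51, -195 and -97 from the start of the window that held them. Cdkn1a and Bbc3 also had windows at other starts, and these held no match. Their best scores were 13 letters for Cdkn1a and 13 and 12 for Bbc3. The windows of Mdm2, Bax, Phlda3 and Sesn2 held no match, which says only that these letters are not in this window.

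Mdm2, the ubiquitin ligase that closes the p53 feedback loop, was the only member called between CdxKO and WT by DESeq2 without the block, with which Cdkn1a and Sesn2 were called too. Mdm2 (chromosome 10, 117688875 to 117710758, minus strand) had 5422, 5393 and 5889 normalised counts in WT replicates 1, 2 and 3, 6910, 7305 and 6828 in CdxKO, and 4762, 5560 and 4844 in T/BraKO. The CdxKO libraries were above all others, and WT and T/BraKO overlapped. The log2 fold change for CdxKO against WT was 0.33 (SE 0.09, a 1.26-fold higher level), with a DESeq2 adjusted p of 0.0374 and, with the block, 3.25e-05. With the block it also passed in edgeR (adjusted p = 0.0161), and CdxKO was higher in 3 of 3 same-numbered pairs. Without the block the call was fragile. It was lost with TMM factors (adjusted p = 0.0737), in edgeR's quasi-likelihood test without the block (0.381) and on leaving out any 1 of the 6 libraries compared (0.0650 to 0.595), T/BraKO replicate 1 (0.0695) or T/BraKO replicate 3 (0.0631), while the log2 fold change stayed between 0.30 and 0.37. For T/BraKO against WT it was -0.14 (95% interval -0.32 to 0.04).

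Trp53 averaged 10296 ± 1983 normalised counts over the WT libraries, 9660 ± 1960 over CdxKO and 11547 ± 2318 over T/BraKO (n = 3 each), with all groups overlapping. With the block it was lower in CdxKO than in T/BraKO (log2 fold change -0.26, DESeq2 adjusted p = 3.24e-04, against 0.806 without the block). Among 20 genes for p53, its relatives and regulators, DESeq2 called none between CdxKO and WT, where edgeR also called none and each tool gave 3 an unadjusted p under 0.05. With the block 3 were lower in CdxKO, among them Atm, a kinase that activates p53 on DNA breaks, at 2018 ± 29.6 normalised counts in CdxKO, against 2589 ± 235 in WT (log2 fold change -0.36, adjusted p = 8.61e-04, against 0.341 without the block). Of all genes the block called 1.91% lower in this comparison.

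In T/BraKO 1 gene of these 20 was called against WT by DESeq2, where 1.08% of all genes were called. This was Trp73, which encodes the p53 relative p73. Its level was 560 ± 22.4 normalised counts in T/BraKO, against 376 ± 62.8 in WT and 396 ± 14.7 in CdxKO (n = 3 each), and all T/BraKO libraries were above all others. The log2 fold change was 0.57 for T/BraKO against WT (DESeq2 adjusted p = 0.00769) and -0.50 for CdxKO against T/BraKO (0.0149). Both calls were lost in edgeR's test without the block (0.170 and 0.130). They were also lost on leaving out T/BraKO replicate 1 (0.0958 and 0.131) or T/BraKO replicate 3 (0.134 and 0.154), the first on leaving out WT replicate 1 (0.142) or WT replicate 2 (0.125), and the second without CdxKO replicate 1 (0.134), 2 (0.0567) or 3 (0.131). Cdkn2a, which encodes ARF, an inhibitor of MDM2, and a separate inhibitor of cyclin-dependent kinases, was higher in CdxKO than in T/BraKO, with 147 ± 46.2 against 64.8 ± 3.13 normalised counts (log2 fold change 1.18, DESeq2 adjusted p = 0.00203). WT stood between them at 90.4 ± 17.4. Without CdxKO replicate 1 the log2 fold change of Cdkn2a was 0.93 (adjusted p = 0.0557), and edgeR gave an adjusted p of 0.0650. With the block DESeq2 could test 19 of the 20 genes and called 3 higher and 0 lower in T/BraKO against WT, and 1 higher and 6 lower in CdxKO against T/BraKO, where without it 1 was higher and 1 lower. Of all genes the block called 4.83% higher and 4.85% lower for T/BraKO against WT. For CdxKO against T/BraKO it called 7.75% higher and 6.9% lower, against 2.52% and 0.962% without it.

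The remaining members act on growth signalling, metabolism and RNA. Trp53inp1 (chromosome 4, 11156431 to 11174379, plus strand) had 15303, 19938 and 13475 normalised counts in WT replicates 1, 2 and 3, 17632, 20719 and 13493 in CdxKO, and 12335, 14821 and 10950 in T/BraKO. The groups overlapped, yet T/BraKO was below the same-numbered WT library in 3 of 3 pairs. Its log2 fold change for T/BraKO against WT was -0.35 (95% interval -0.75 to 0.04), with a DESeq2 adjusted p of 1 and, with the block, 1.00e-07. For CdxKO against T/BraKO it was 0.44, with an adjusted p of 0.338 and, with the block, 1.90e-12.

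Sesn2 (chromosome 4, 132492032 to 132510501, minus strand) had 2921, 2422 and 3794 normalised counts in WT replicates 1, 2 and 3, 3492, 2847 and 4235 in CdxKO, and 2621, 2432 and 3012 in T/BraKO. The groups overlapped, and replicate 3 was the highest of each genotype. With the block Sesn2 was higher in CdxKO than in T/BraKO (log2 fold change 0.38, DESeq2 adjusted p = 4.66e-06, against 0.452 without it) and than in WT (0.21, 0.0494, against 1.00 without it), where edgeR with the block gave 0.0896. Sesn2 shares 6089 bases of its locus with Gm12981 on the same strand, so counts from there could belong to either gene.

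Phlda3 (chromosome 1, 135766119 to 135769136, plus strand) had 1966, 1825 and 1802 normalised counts in WT replicates 1, 2 and 3, 2094, 2272 and 1965 in CdxKO, and 2441, 1978 and 2198 in T/BraKO. All T/BraKO libraries were above all WT libraries, and CdxKO overlapped both. The log2 fold change for T/BraKO against WT was 0.24, with a DESeq2 adjusted p of 0.743 and, with the block, 0.0392. In edgeR with the block the adjusted p was 0.0671. Zmat3 (chromosome 3, 32334792 to 32366014, minus strand) averaged 8957 ± 815 normalised counts over the WT libraries, 8638 ± 572 over CdxKO and 8852 ± 1086 over T/BraKO (n = 3 each). Its groups overlapped, and its 95% intervals for the mutants against WT reached from -0.29 to 0.19 and from -0.25 to 0.22.

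Counted without a model, all 3 libraries of CdxKO were above all 3 of WT for 2 members (Cdkn1a and Mdm2), against 5.59% of the 12316 genes that averaged at least 50 normalised counts. All T/BraKO libraries were above all WT libraries for 3 members (Pmaip1, Cdkn1a and Phlda3), against 4.54%. No member had all libraries of either mutant below all of WT, against 4.28% of those genes for CdxKO and 5.38% for T/BraKO. Between the mutants, Mdm2 was higher in all CdxKO libraries and Pmaip1 in all T/BraKO libraries, against 7.89% and 7.58%. Pmaip1 was chosen for its T/BraKO value, so its place in these counts is no independent result beside the shares.

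In the direct comparison of the mutants, Pmaip1 and Mdm2 were called in opposite directions. Pmaip1 was lower in CdxKO than in T/BraKO, with 839 ± 146 against 1664 ± 298 normalised counts (n = 3 each) and a log2 fold change of -0.99 (SE 0.19, DESeq2 adjusted p = 3.65e-05). Mdm2 was higher, with 7014 ± 255 against 5055 ± 439 (log2 fold change 0.47, SE 0.09, adjusted p = 1.96e-05). Both calls held under all 15 alternative fits, with adjusted p up to 0.0317 for Pmaip1 and up to 0.0235 for Mdm2, and both directions were seen in 3 of 3 same-numbered pairs. As Pmaip1 had been chosen for its T/BraKO value, these fits and pairs are no independent test of its difference.

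Much of the spread inside the genotypes followed the replicate number. In a DESeq2 likelihood ratio test of replicate number with genotype kept in both models, 6 of the 10 members passed an adjusted p of 0.05, against 47.9% of all genes. These were Trp53inp1 (adjusted p = 9.16e-19), Sesn2 (1.00e-10), Ccng1 (2.81e-07), Pmaip1 (4.66e-04), Bbc3 (0.00399) and Zmat3 (0.00520). Trp53inp1 was highest in replicate 2 of each genotype, with a log2 difference of 0.29 from replicate 1 to replicate 2 and of -0.25 from replicate 1 to replicate 3. Sesn2 was highest in replicate 3 of each genotype and Ccng1 in replicate 1. Trp53 was lowest in replicate 2 of each genotype (log2 difference from replicate 1 of -0.51, adjusted p = 7.32e-20). The ribosomal RNA gene Rn45s took 1.69%, 4.21% and 3.69% of the counts in replicate 1 of WT, CdxKO and T/BraKO, and between 0.343% and 0.992% in the other libraries. Its part in these differences was not tested.

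**Figure D3:**
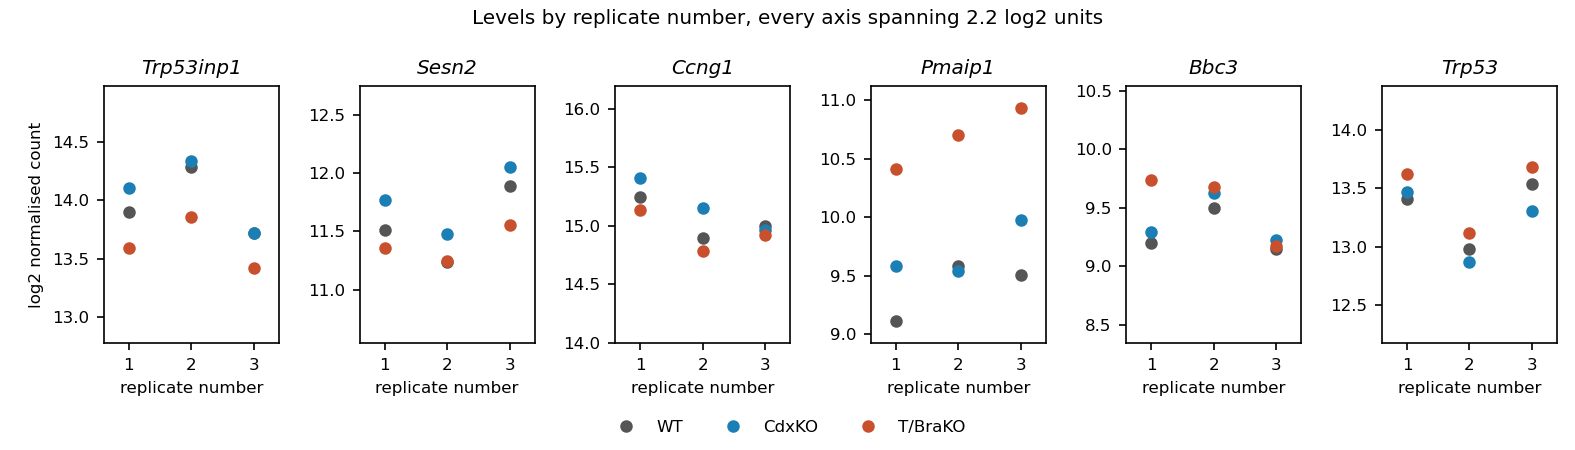
Log2 normalised counts (y axis) of 5 members and Trp53 by replicate number (x axis), coloured by genotype, with all y axes of equal span. Trp53inp1 is highest and Trp53 lowest in replicate 2 of each genotype, and Pmaip1 in T/BraKO is above the other genotypes at every replicate number.

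The wider p53 response was read from a list of 40 other target genes. DESeq2 called 3 of them higher and 0 lower in CdxKO than in WT, against 0.335% and 0.358% of all genes. Plk3, a stress-responsive polo-like kinase, had 455 ± 68.1 normalised counts in CdxKO, against 277 ± 57.6 in WT (log2 fold change 0.71, adjusted p = 0.0321). The Plk3 call was lost on leaving out WT replicate 1 (0.515) or 2 (0.330), CdxKO replicate 1 (0.408) or 3 (0.343), or T/BraKO replicate 1 (0.0628) or 3 (0.0573), and in the fit to the 6 libraries compared (0.0837). Perp, a desmosomal effector of p53, was also called, at a log2 fold change of 0.50 (adjusted p = 0.0482). The Perp call was lost on leaving out any WT library (0.225, 0.404 and 0.0928 for replicates 1 to 3), CdxKO replicate 1 (0.657) or 3 (0.287), or T/BraKO replicate 1 (0.101) or 3 (0.0782), and in the fit to the 6 libraries compared (0.104). With the block DESeq2 called 8 of 39 tested higher and 0 lower, against 3.4% and 1.91% of all genes. The edgeR test called 0 of the 40, and each tool gave 7 of them an unadjusted p under 0.05.

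Between T/BraKO and WT DESeq2 and edgeR called 0 of the 40 other targets, and each tool gave 3 of them an unadjusted p under 0.05. With the block 1 was higher and 4 lower, against 4.83% and 4.85% of all genes. The lower ones included Tap1, a peptide transporter of antigen presentation, with 975 ± 125 normalised counts in WT and 705 ± 34.4 in T/BraKO (log2 fold change -0.46, adjusted p = 1.67e-04, against 0.284 without the block). Ckap2, a spindle protein, was also among them, with 2696 ± 226 normalised counts in WT and 2215 ± 110 in T/BraKO (-0.28, 3.92e-04, against 0.196 without the block).

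Between CdxKO and T/BraKO 2 of the 40 were higher and 0 lower by DESeq2, against 2.52% and 0.962% of all genes. By edgeR 1 was higher, against 1.24% of all genes. Perp had 2457 ± 342 normalised counts in CdxKO, against 1711 ± 119 in T/BraKO (log2 fold change 0.52, adjusted p = 0.00738, and 0.131, 0.0775 and 0.0606 without CdxKO replicate 1, CdxKO replicate 3 and T/BraKO replicate 2, and 0.0766 in edgeR). With the block 12 of the 40 were higher in CdxKO and 0 lower, against 7.75% and 6.9% of all genes. The median log2 fold changes of the 40 genes were 0.02 for CdxKO against WT, -0.02 for T/BraKO against WT and 0.13 for CdxKO against T/BraKO.

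Several p53 targets, Sesn2 and Pmaip1 among them, are also induced by the integrated stress response through the transcription factor ATF4. Of 14 genes of that response DESeq2 and edgeR without the block called none in any comparison. At an unadjusted p under 0.05 DESeq2 had 6 for CdxKO against WT and 0 in the other comparisons, and the share of all genes at that p was not counted. The median log2 fold changes of the 14 genes were 0.49 for CdxKO against WT, 0.18 for T/BraKO against WT and 0.33 for CdxKO against T/BraKO. With the block 5 were higher in CdxKO than in WT, among them Slc7a11, the cystine transporter, at 214 ± 156 normalised counts in CdxKO, against 82.5 ± 46.2 in WT (log2 fold change without the block 1.37, adjusted p = 0.554, and 1.31e-05 with the block). The block also gave 4 genes higher and 0 lower in CdxKO against T/BraKO, among them Slc7a11 (log2 fold change 0.93, adjusted p = 0.00190, against 0.503 without the block), and 1 higher and 1 lower in T/BraKO against WT. Of all genes the block called 3.4% higher for CdxKO against WT. It called 7.75% higher and 6.9% lower for CdxKO against T/BraKO, and 4.83% higher and 4.85% lower for T/BraKO against WT. Chac1, which degrades glutathione, had 451 ± 262 in CdxKO, against 210 ± 87.0 in WT (log2 fold change 1.10, adjusted p = 0.496). In T/BraKO, where Pmaip1 was higher, Trib3 and Chac1 had log2 fold changes of 0.48 and 0.42 (adjusted p = 1 for both), and for CdxKO against T/BraKO Ddit3, encoding CHOP, had 0.44 (0.589).

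**Figure D4:**
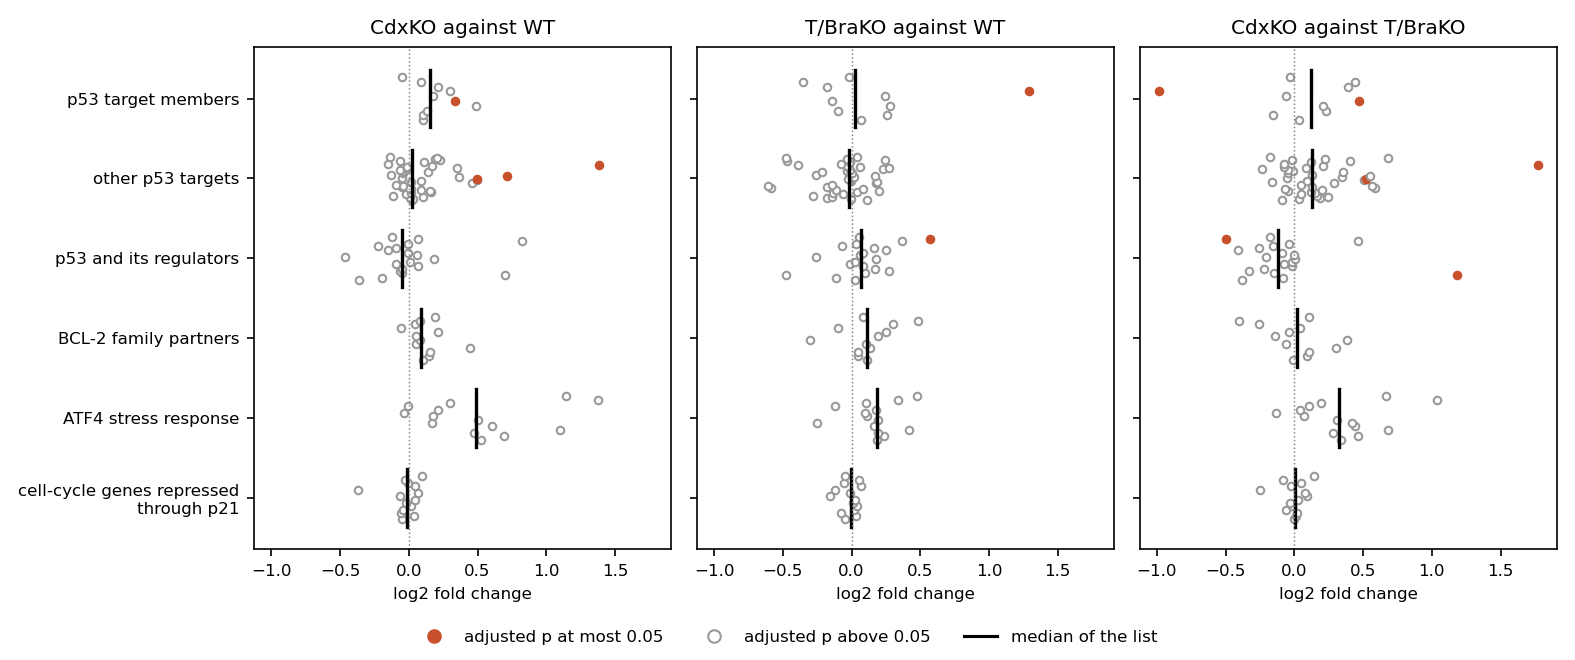
Log2 fold changes (x axis, without the block) of the genes in 6 lists (y axis) in the 3 comparisons, 1 point per gene, filled where the DESeq2 adjusted p was at most 0.05, with vertical bars at the median of each list. The median of the ATF4 list lies at 0.49 for CdxKO against WT, and Pmaip1 is the isolated filled point of the top row at 1.29 for T/BraKO against WT.

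Over the 9 libraries, the genes whose log2 normalised counts followed Pmaip1 most closely, among 12316 genes, were Tgfbr3, a co-receptor for TGF-beta ligands (Pearson r = 0.970), Hdhd5 (0.945), Shroom3, an actin-binding regulator of cell shape (0.937), Pla2g6, a phospholipase (0.935), and the imprinted noncoding gene Peg13 (0.934). None was on the p53 lists, which hold only a small part of these 12316 genes, so this says nothing about a link to p53. Tgfbr3 averaged 1746 normalised counts over T/BraKO, against 943 over WT and 941 over CdxKO. Within the set, Pmaip1 and Cdkn1a correlated at r = 0.28, Pmaip1 and Mdm2 at -0.49, and Pmaip1 and Trp53inp1 at -0.63. These are descriptions over 9 libraries that share genotype and replicate number.

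The cell identity of the cultures was read from marker genes. Of 10 caudal epiblast markers, all had a mean of at least 1 TPM in WT and T/BraKO and 9 in CdxKO, and their summed level was 1157 to 1357 TPM in WT, 740 to 1211 in CdxKO and 923 to 1269 in T/BraKO. The mutated genes T, Cdx1, Cdx2 and Cdx4 are among these 10. DESeq2 called 5 of the 10 lower in CdxKO against WT (Cdx1, Cdx2, Cdx4, Wnt3a and Wnt8a), against 0.358% of all genes. In T/BraKO against WT 3 were lower (T, Wnt3a and Fgf8) and 2 higher (Fgf17 and Sp5), against 0.937% and 0.148%. Between CdxKO and T/BraKO 2 were higher in CdxKO and 7 lower, against 2.52% and 0.962%. Of 6 paraxial mesoderm markers, 4 (Msgn1, Tbx6, Dll1 and Rspo3) were called lower in T/BraKO against WT by DESeq2, with a summed level of 16.7 to 24.5 TPM in T/BraKO, 67.6 to 119 in WT and 41.6 to 130 in CdxKO. In bulk RNA, fewer cells of a type and less RNA per cell cannot be told apart. The summed level of 6 epiblast markers was 907 to 1527 TPM in WT, 1160 to 1645 in CdxKO and 1306 to 1957 in T/BraKO. Among these and 7 naive pluripotency, 5 endoderm and 4 neural markers, DESeq2 called only the naive marker Klf4. It was higher in CdxKO than in WT, against 0.335% of all genes. The summed level of 7 feeder fibroblast markers was 33.9 to 59.4 TPM in WT, 41.8 to 77.9 in CdxKO and 33.0 to 54.5 in T/BraKO, and no marker of any list was at 0 in all libraries. By DESeq2 Postn was called lower in T/BraKO against WT, and Col1a1, Col1a2 and Postn were higher and Thy1 lower in CdxKO than in T/BraKO. Mesodermal markers were thus low in the genotype in which Pmaip1 was high, and the part of cell composition in the Pmaip1 difference was not tested.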

How the data were processed

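Single-end, strand-specific poly(A) reads were trimmed by the authors with cutadapt 1.16, then aligned and quantified with STAR 2.5.2a and RSEM 1.3.0 against RefSeq genes of mouse build mm10. The authors deposited expected counts per gene, which need not be whole (3.75% to 4.00% were fractional), and TPM. Because shared reads are split by estimate, overlapping genes are uncertain. Expected counts were rounded and tested in R 4.3.3 with DESeq2 1.42.0 (Wald test, genotype only, all 9 libraries, unshrunken log2 fold changes, Benjamini-Hochberg adjusted p over all genes). The deposited TPM values served only to compare levels. Alternatives used edgeR 4.0.16, TMM factors, a replicate block, only genes reaching 10 counts in 3 or more libraries, fits to the 6 libraries compared, stricter thresholds and leaving out each library. The scripts were tested on simulated counts. Without a replicate effect each fit recovered at least 95.4% of log2 changes of size 1. With a replicate effect, DESeq2 recovered 54.6% and edgeR 9.3% without the block, with 0 false calls each. With the block they recovered 98.1% and 99.1%, with 7 false calls each. The size of the simulated replicate effect was chosen and need not match these data.

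Replicate numbers came from the titles. Deviations of same-numbered libraries from their group means correlated at 0.703 on average (0.532 to 0.814, 9 pairs, across genes), and those of different numbers at -0.340, so the numbers were taken as pairs. The floor of 3 counts equalled 0.0864 to 0.119 CPM, and no 2 libraries of the same genotype agreed within sampling noise. Coordinates are from GENCODE M21 on GRCm38, the assembly of mm10. Cop1 was found under its synonym Rfwd2. The members and gene lists were chosen with earlier results of these data known, Pmaip1 for its value in T/BraKO. Beside the members and Trp53, genes were named as the 2 with the smallest adjusted p of each list and comparison, and the 5 most like Pmaip1. One gene that this rule names is counted in its list but is not reported here. Perp in CdxKO against WT, the mutated genes, Hprt, Ddx3y, Rn45s and the cell type markers were named outside this rule, after values were seen.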

Additional observations from a re-analysis of the deposited data

Results flagged for a closer look

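The CdxKO and T/BraKO libraries differed for 2 members, by the DESeq2 test of CdxKO against T/BraKO itself, in which the mutations and other properties of the lines cannot be told apart. Pmaip1, encoding NOXA, had a log2 difference of -0.99 (adjusted p = 3.65e-05), where its log2 fold change against WT was 0.30 in CdxKO and 1.29 in T/BraKO. Mdm2, encoding the ligase that degrades p53, had a log2 difference of 0.47 (adjusted p = 1.96e-05), where its log2 fold change against WT was 0.33 in CdxKO and -0.14 in T/BraKO. Both differences were seen in 3 of 3 same-numbered pairs. Pmaip1 had been chosen for its T/BraKO value, so its difference is not independent of that choice.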

How the results depend on the processing

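Over 64 log2 fold changes of members and list genes and 15 alternative fits, 875 of 960 values kept their side of the threshold, 48 lost a call, 37 gained one, and 0 called values reversed, while 16 uncalled values changed sign. The number of members called between CdxKO and WT, 1 as reported, was 0 with TMM factors, edgeR, an adjusted p of at most 0.01 or an absolute log2 fold change above 1, 3 with the replicate block and 2 with edgeR and the block, and ranged from 0 to 1 on leaving out a library. Between T/BraKO and WT it was 1 as reported, 3 with the replicate block and 2 with edgeR and the block. Between CdxKO and T/BraKO it was 2 as reported, 5 with the block in either tool and 0 at an absolute log2 fold change above 1. The block and edgeR moved the count of all genes called from 116 to 736 and 16 for CdxKO against WT, from 205 to 1237 and 56 for T/BraKO against WT, and from 558 to 2187 and 237 for CdxKO against T/BraKO. The causes were not tested. Calls that the block or 1 library changed are given beside their values above, and the block changed no other call among the members. Of the list genes named there, the calls of Atm and Bcl2l1 for CdxKO against WT, of Ckap2 for T/BraKO against WT and of Ddit3 for CdxKO against T/BraKO also appeared on leaving out 1 library each (T/BraKO replicate 1, CdxKO replicate 2, WT replicate 2 and T/BraKO replicate 2, adjusted p of 0.0490, 0.0215, 0.0400 and 0.0488). With 3 replicates per genotype the standard errors of the members ran from 0.09 to 0.20 on the log2 scale, which limits the differences that could be called.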
